A study of Gossypium hirsutum with 8 samples.

Results

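Class III peroxidases are secreted haem enzymes of plants that use hydrogen peroxide to oxidise phenolic compounds. They polymerise lignin and cross-link wall proteins and phenolics, which stiffens the cell wall, and in other reactions they form reactive oxygen that loosens it. They make up a large gene family in every land plant, and roots are among the tissues where many of its members are expressed. The genes described here are those of upland cotton (Gossypium hirsutum) whose single gene in the array's probe table carries a POX or pod number as a RefSeq synonym. The rule found 9 genes, 6 named pod and 3 named POX, of the 520 genes to which the table ties at least 1 probe set singly. They were read by 10 of the 24029 probe sets tested (a probe set is a group of short oligonucleotides for 1 transcript), with POX5 read by 2 of them. The rule reads names and no measured value. All 10 stayed in every count below, except that the alternative with dim probe sets left out did not hold pod3. RefSeq gives the names but no account of what each enzyme oxidises, so no substrate or site of action is assigned to single members.

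The plants were of the cultivar Sicot 71, grown in soil in a glasshouse to the two-leaf stage, and all groups shared this cultivar and stage. The flooded roots were whole roots of plants whose root system had been under water for 4 h, and the control roots were whole roots of plants watered as before. The flooded leaves were first leaves of plants flooded for 24 h, with the water covering the root system below the hypocotyl, and the control leaves were first leaves of unflooded plants. Each group held 2 arrays that the labels call biological replicates, 8 in all, and the number of plants behind an array is not stated. The comparison of interest is flooded against control within each tissue. Tissue and length of flooding go together in this design and cannot be told apart. Values were deposited signals on the log2 scale from the Affymetrix cotton array, so 1 unit is a doubling, and a whole organ was sampled each time, so fewer cells of a type and less RNA per cell cannot be told apart.

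The arrays of a tissue had like medians (6.14 to 6.17 in root, 5.32 to 5.41 in leaf), but the replicates did not lie equally close. The 2 arrays of flooded root differed by more than 1 log2 unit in 1.12% of probe sets, against 13.2% for those of control root, and the arrays of flooded leaf in 0.608%, against 3.67% for those of control leaf. Among the 10 peroxidase probe sets, 0 differed by more than 1 unit between the arrays of either flooded group, against 3 in control root and 1 in control leaf. The 52 probe sets for reporter sequences served as a guide to the level of probe sets with no plant target. The 95th percentile of their means was 6.13 in flooded root and 6.43 in control root, and 5.45 in flooded leaf and 5.60 in control leaf. In control root and in both leaf groups these bounds lay above the array medians. A signal under them is therefore not by itself taken as background. RCA1, the rubisco activase listed as the marker of photosynthetic cells, lay under these bounds in root, with 5.22 and 5.24 when flooded and 5.25 and 5.89 in control root. It lay far above them in leaf, with 14.62 and 14.66 when flooded and 14.51 and 14.60 in control leaf.

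POX10 (LOC107937645) gave the largest response of the peroxidases in both tissues. In root it read 9.07 and 9.94 on the flooded arrays, against 12.87 and 12.44 on the control arrays. Both flooded arrays lay far under both control arrays, and the gap between the groups was wider than the distance between the replicates of either. POX10 fell 8.86-fold in flooded root, with means of 9.51 ± 0.61 in flooded and 12.65 ± 0.31 in control root (SD, n = 2 each; log2 change -3.15, SE 0.34, limma adjusted p = 0.0015). The 95% confidence interval of that log2 change ran from -3.94 to -2.36. Only 0.137% of all probe sets had a larger fall in root.

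The same gene fell in leaf. POX10 read 5.39 and 5.91 in flooded leaf, against 8.24 and 7.88 in control leaf, again with no overlap between the groups. The fall was 5.31-fold (log2 change -2.41, SE 0.34, 95% confidence interval -3.20 to -1.62, limma adjusted p = 0.013), and 0.200% of probe sets fell further. In flooded leaf the POX10 mean of 5.65 ± 0.37 (SD, n = 2) stood just over the reporter 95th percentile there, so its fold in leaf would be a lower limit if that level is background. The POX10 change in root minus that in leaf was -0.74 (SE 0.48, 95% confidence interval -1.85 to 0.38, limma adjusted p = 0.45), so the difference between the tissues did not pass the test, and its interval reaches from a deeper fall in root to a deeper one in leaf. POX10 kept its call in root under all 16 alternatives tried, with adjusted p-values from 0.00066 to 0.028. In leaf the call was lost without any 1 of the 4 leaf arrays (adjusted p = 0.055 to 0.15), with log2 changes from -2.67 to -2.15.

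**Figure D1:**
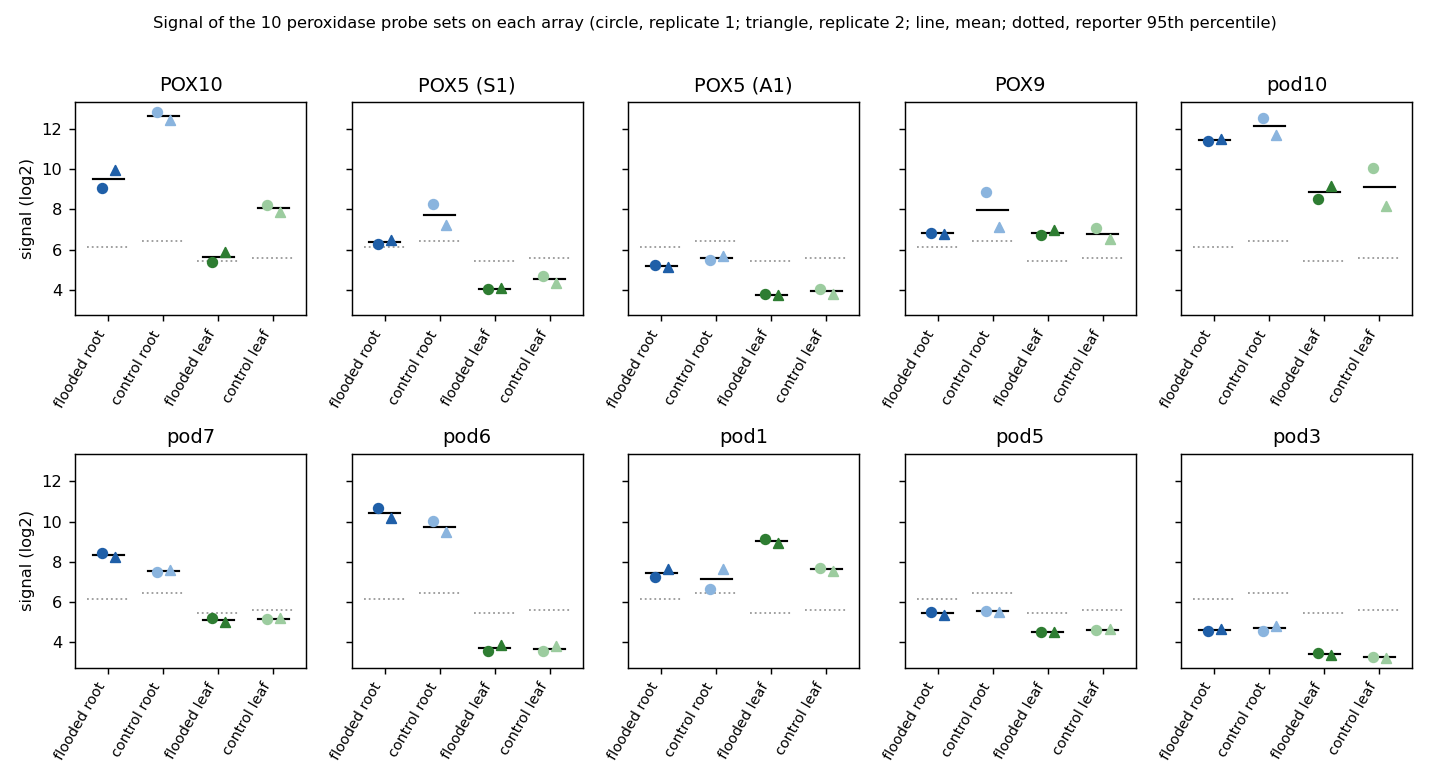
Signal on the log2 scale (vertical axis) of each of the 10 peroxidase probe sets on the 8 arrays, by group, with circles for replicate 1, triangles for replicate 2, a black line for the group mean and a dotted line for the reporter 95th percentile of the group. POX10 drops in both tissues when flooded, pod6 lies above the dotted line in root and below it in leaf, and the control arrays of POX5 (S1), POX9 and pod10 lie apart from each other.

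POX5 (LOC107914564) was the other peroxidase that fell in root. Its S1 probe set read 6.26 and 6.48 in flooded root, against 8.29 and 7.21 in control root. The groups did not overlap, but the control arrays differed by 1.08, more than the flooded arrays did. The fall was 2.60-fold (log2 change -1.38, SE 0.33, 95% confidence interval -2.16 to -0.60, limma adjusted p = 0.04). The size of this change rested on which control array was used: it was -0.84 without control root replicate 1 and -1.92 without control root replicate 2. In those fits the gap of 1.08 between the control arrays no longer enters the spread, so no call is read from them. The call was lost without any 1 of the other 6 arrays. It was also lost with the root arrays fitted alone (limma adjusted p = 0.18) and with a replicate block (0.072).

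The second probe set of POX5, A1, was dim, with 5.22 and 5.15 in flooded root and 5.47 and 5.69 in control root, all under the reporter bounds. Its log2 change of -0.40 (SE 0.18, limma adjusted p = 0.24) did not pass. In the array maker's naming A1 and S1 mark probe sets of opposite orientation on a transcript cluster, and no source used here states which of them reads the POX5 messenger. The probe sets of POX9, pod10 and AOX1, described below, are also marked A1, and the same limit holds for them. In leaf both POX5 probe sets lay under the bounds. S1 read 4.03 and 4.10 in flooded leaf, against 4.68 and 4.37 in control leaf (log2 change -0.46, limma adjusted p = 0.55).

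pod7 (LOC107936187) was the only peroxidase that rose in root by the test over all 8 arrays. It read 8.43 and 8.22 in flooded root, against 7.50 and 7.58 in control root. Replicates lay within 0.21 of each other, and both flooded arrays were above both control arrays. The rise was 1.72-fold (log2 change 0.78, SE 0.17, 95% confidence interval 0.38 to 1.19, limma adjusted p = 0.029). In leaf pod7 read between 5.02 and 5.22, under the reporter bounds there, and its flooded arrays spanned the control ones (log2 change -0.041, SE 0.17, limma adjusted p = 0.95). The pod7 change in root minus that in leaf was 0.83 (95% confidence interval 0.25 to 1.40, limma adjusted p = 0.088) and did not pass. The pod7 call in root was kept under 7 of 16 alternatives and lost under 9, among them the root arrays alone (adjusted p = 0.12), quantile normalization within tissue (log2 change 0.62, adjusted p = 0.12), the replicate block (0.094), either flooded root array left out (0.23 and 0.1) and either flooded leaf array left out (0.065 each).

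pod6 (LOC107908968) had the widest gap in rank between root and leaf of the 9 genes. It read 10.68 and 10.17 in flooded root and 10.01 and 9.48 in control root, above the reporter bounds, and between 3.55 and 3.88 in leaf, under them. On the control arrays it stood at percentile 87.8 of the probe sets in root and at percentile 17.8 in leaf, a gap that 0.229% of all probe sets exceeded. The flooded root arrays lay above the control root arrays, yet the log2 change of 0.68 (SE 0.26, limma adjusted p = 0.18) did not pass. It was 0.94 without control root replicate 1 and 0.42 without control root replicate 2.

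pod1 (LOC107945392) ranked higher in control leaf, at percentiles 73.7 and 71.8, than in control root, at 55.3 and 70.6. A larger gap toward leaf was found in 20.9% of all probe sets. The pod1 signals were 9.13 and 8.94 in flooded leaf, against 7.72 and 7.52 in control leaf. The groups stood clear of each other, and replicates differed by less than 0.20. The log2 change of 1.42 (SE 0.32, 95% confidence interval 0.66 to 2.18, limma adjusted p = 0.052) just missed the threshold of 0.05, although only 1.03% of probe sets rose further in leaf. It passed under 7 of 17 alternatives, among them the leaf arrays alone (adjusted p = 0.016) and dim probe sets left out (0.04). Another of the 7 was a crossed replicate block chosen after the data were seen (0.039). With any 1 leaf array left out pod1 did not pass, with log2 changes in leaf from 1.32 to 1.52. In root pod1 read 7.26 and 7.62 on the flooded arrays, inside the span of the control arrays, 6.63 and 7.64 (log2 change 0.30, limma adjusted p = 0.67).

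**Figure D2:**
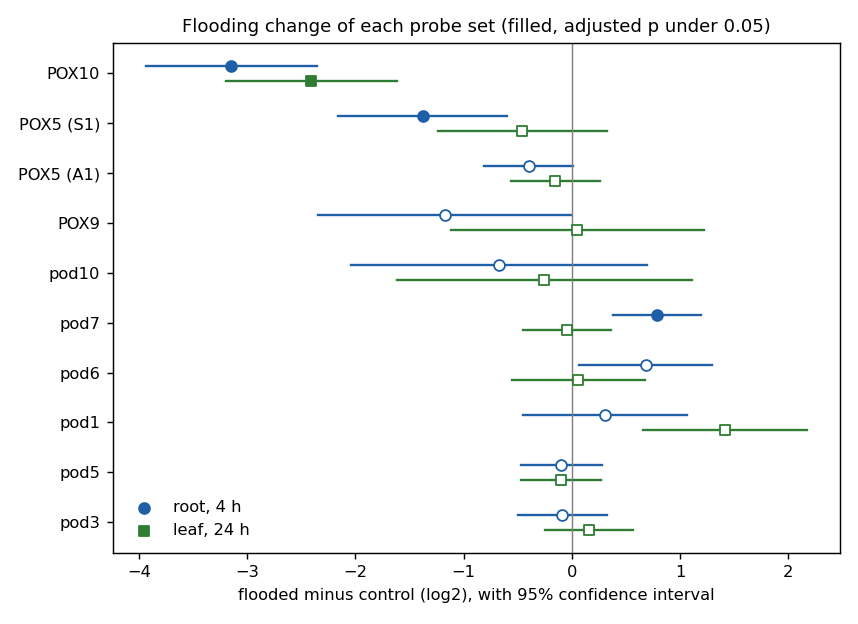
Log2 change of each peroxidase probe set, flooded minus control (horizontal axis), with its 95% confidence interval, in root after 4 h (circles) and leaf after 24 h (squares), filled where the limma adjusted p is under 0.05. POX10 is filled at -3.15 in root and -2.41 in leaf, POX5 (S1) at -1.38 and pod7 at 0.78 in root, and pod1 in leaf is open at 1.42.

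POX9 (LOC107958589) and pod10 (LOC107914313) were marked by the distance between control arrays. Both are read by probe sets whose names end in s_at, the array maker's mark for probes that can match several transcripts, so related peroxidases may be included. POX9 read 6.85 and 6.79 in flooded root, against 8.87 and 7.12 in control root. The log2 change of -1.18 (SE 0.50, limma adjusted p = 0.22) did not pass with all arrays. It was -2.05 without control root replicate 2 and -0.30 without control root replicate 1. In either of these fits the gap between the control root arrays no longer enters the spread, so no call is read from them. In leaf POX9 read 6.75 and 6.96 when flooded, against 7.06 and 6.55 in control leaf, and the groups overlapped.

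pod10 was among the brightest probe sets of the root, at percentiles 96.1 and 96.7 in flooded root and 99.0 and 97.8 in control root. It read 11.39 and 11.52 in flooded root, against 12.53 and 11.73 in control root (log2 change -0.67, SE 0.58, limma adjusted p = 0.59). In control leaf its arrays stood at 10.06 and 8.15, a gap of 1.91 that enclosed both flooded leaf values of 8.52 and 9.18. The pod10 change in leaf (-0.25, 95% confidence interval -1.62 to 1.11) took either sign with 1 array left out, from -1.21 to 0.70.

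The remaining members, pod3 (LOC107927057) and pod5 (LOC107922335), were dim in all groups. pod3 averaged 4.60 ± 0.07 in flooded root and 4.68 ± 0.20 in control root, and 3.40 ± 0.06 in flooded leaf and 3.25 ± 0.04 in control leaf (SD, n = 2 each). pod5 averaged 5.44 ± 0.09 in flooded root and 5.54 ± 0.04 in control root, and 4.53 ± 0.00 in flooded leaf and 4.63 ± 0.02 in control leaf (SD, n = 2 each). All of these means lay under the reporter bounds of their groups. Their log2 changes ran from -0.10 to 0.16, with adjusted p-values from 0.73 to 0.84. If the bound marks background, a fall from this level would not be visible.

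Counted together, 1 of the 10 probe sets rose and 2 fell in flooded root, and 7 did not pass. Among all probe sets, limma called 6.40% higher and 4.28% lower in root. In leaf 0 rose and 1 fell, where 2.21% of all were called higher and 3.05% lower; at an unadjusted p under 0.05 limma had 1 higher and 1 lower, and pod1 passed under 7 alternatives named in part above. With so few members these shares are single genes, and nothing is read from them about the family. The median log2 change of the 10 probe sets was -0.25 in root and -0.07 in leaf, beside -0.02 and -0.04 over all probe sets. The flooded and control arrays did not overlap for 8 of the 10 in root, 2 higher and 6 lower, as for 46.4% of all probe sets in either direction. In leaf 2 lay higher and 4 lower without overlap, and 56.5% of all probe sets did so in either direction. None of the 10 had a change that differed between the tissues at an adjusted p under 0.05, where 8.26% of all probe sets did. At an unadjusted p under 0.05 limma had 2, pod1 and pod7. No share of all probe sets was counted at the unadjusted threshold. Counts at that threshold, in this paragraph and below, are therefore not compared with the adjusted shares. With 2 arrays a group an exact two-sided permutation test cannot go below p = 0.333, so every call rests on the spread that limma shares across probe sets and groups.

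**Figure D3:**
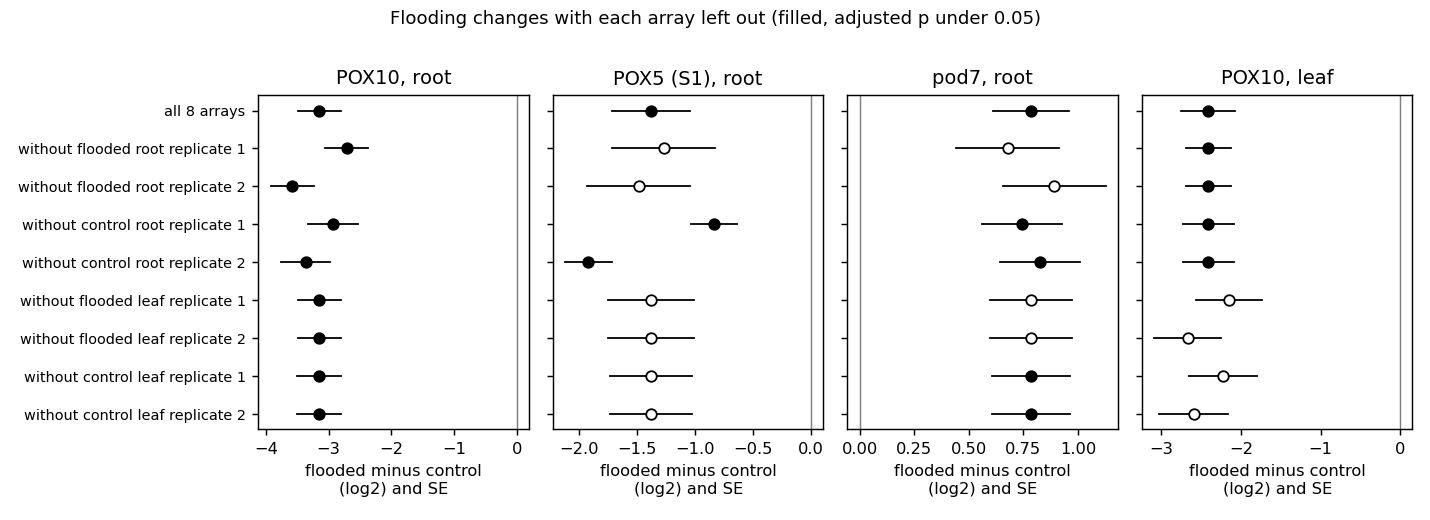
Log2 change, flooded minus control (horizontal axis), with its SE, for the changes called with all 8 arrays, fitted again with each array left out, filled where the adjusted p stays under 0.05. POX10 in root stays filled between -3.58 and -2.71, while POX5 (S1) and pod7 in root and POX10 in leaf lose the call in several fits.

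Because the root and leaf arrays have different lower ends of signal, levels were set across tissues only as ranks among the probe sets of the same array. In control root the ranks of the 10 probe sets ran from percentile 7.61 for pod3 to 99.2 for POX10, and in control leaf from 4.93 for pod3 to 85.8 for pod10. Of the 10, 8 ranked higher in control root than in control leaf, and pod1 and pod5 ranked higher in leaf. The 8 include POX5 (A1) and POX5 (S1), which are from the same gene. POX5 (A1), pod3 and pod5 lay under the reporter bound in control root and control leaf, so the direction of their gaps is open. A gap toward root larger than the 2.68 points of pod3 was found in 43.1% of all probe sets. The count is therefore not read as a root preference of the family. After pod6, the widest gaps were those of POX5 (S1) with 30.5 points, POX10 with 21.8 and pod7 with 19.7. Over all probe sets 4.12%, 7.89% and 9.25% had a gap in that direction larger than these. In control leaf pod6, POX5 (S1) and pod7 lay under the reporter bound, so their leaf ranks are positions within that range and the sizes and order of these gaps are approximate. The gaps of pod3 and pod5 were within 3.1 points. Flooding moved POX10 down to percentiles 80.7 and 88.4 in root, against 99.4 and 99.0 in control root. It stood at percentiles 50.7 and 55.5 in flooded leaf, against 79.3 and 75.5 in control leaf.

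**Figure D4:**
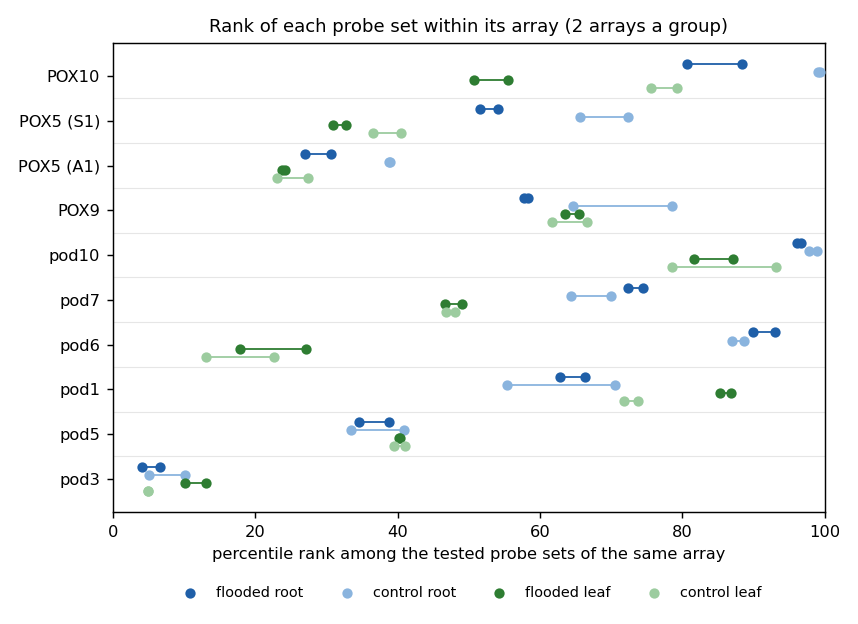
Percentile rank of each peroxidase probe set among the 24029 tested probe sets of the same array (horizontal axis), with 2 points a group joined by a line. POX10 sits above percentile 99 in control root and between 50.7 and 55.5 in flooded leaf, and pod6 is over 87 in root and under 28 in leaf.

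The peroxidases followed different courses over the arrays. For each called member the 3 named probe sets with the closest pattern were taken, by Pearson r over the 8 arrays after the mean of each tissue was subtracted, among 314 candidates. The values are a description: the 8 points share arrays and steps of flooding, and with so many candidates high values are common. The changes of these neighbours are given with no test, since likeness to a called member chose them. POX10 was closest to a probe set of fla-12 (r = 0.99), a wall glycoprotein of the fasciclin-like family, to ManA2 (r = 0.98) and to a probe set of the translation elongation factor EF1A7 (r = 0.98). These 3 had lower signals in both flooded tissues, with log2 changes of -1.94 in root and -1.58 in leaf for fla-12, -1.22 and -1.23 for ManA2, and -0.78 and -0.83 for EF1A7. pod7 was closest to AOX1 (r = 0.98), the alternative oxidase of mitochondria, to ERF7 (r = 0.97), an ethylene response factor, and to NAC2 (r = 0.96), a NAC transcription factor. The root log2 changes were 3.83 for AOX1 and 3.29 for ERF7, and that of NAC2 was smaller. The leaf log2 changes of these 3 lay between -0.086 and 0.079.

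The S1 probe set of POX5 was closest to the transcription factor GHMYB10 (r = 0.98), to a probe set of an expansin, EXP (r = 0.96), and to CAP (r = 0.95). Their root log2 changes were -0.55, -0.58 and -0.86. Like POX5, they read highest on control root replicate 1 among the root arrays. Among the peroxidases themselves, the closest pair by the same measure was POX9 and POX5 (S1) (r = 0.90), followed by POX10 and POX5 (S1) (r = 0.87), and the most opposed was pod7 and POX5 (S1) (r = -0.84).

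**Figure D5:**
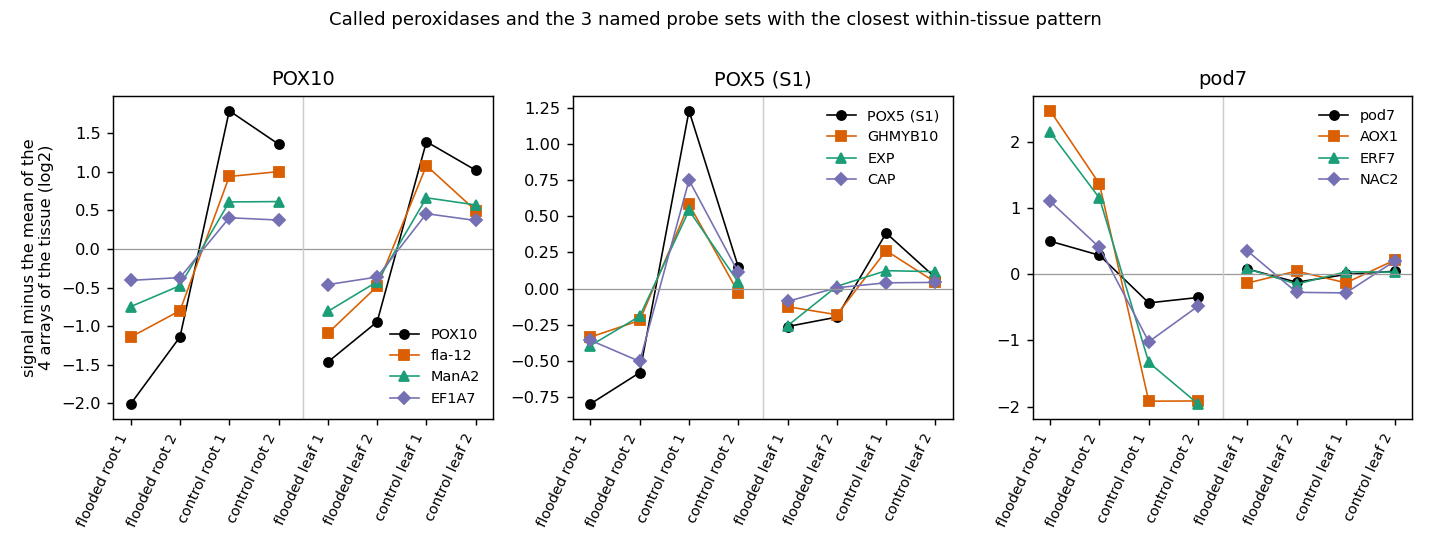
Signal minus the mean of the 4 arrays of its tissue (vertical axis, log2) for POX10, POX5 (S1) and pod7 in black and for the 3 named probe sets with the closest pattern in colour, on the 8 arrays. POX10 and its neighbours are low on the flooded arrays of both tissues, POX5 (S1) and its neighbours peak on control root replicate 1, and pod7 and its neighbours are high on the flooded root arrays. In leaf pod7, AOX1 and ERF7 stay between -0.15 and 0.22, while NAC2 runs from -0.28 to 0.35.

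Class III peroxidases draw on hydrogen peroxide, and a list of enzymes of reactive oxygen production and removal was set beside them. Some of the listed enzymes act in mitochondria, whereas class III peroxidases are secreted, and no link between them was tested. Of 14 probe sets on that list, from 11 genes, 2 rose and 0 fell in flooded root in limma (4 and 0 at an unadjusted p under 0.05), and 12 did not pass, where 6.40% of all probe sets were called higher and 4.28% lower. The list's median log2 change in root was 0.26, beside -0.02 over all probe sets. The rises were those of AOX1 (log2 change 3.83) and of 1 of 2 probe sets of Mn-SOD, the superoxide dismutase of mitochondria, which yields hydrogen peroxide. That probe set read 7.53 and 7.86 in flooded root, against 5.98 and 6.44 in control root (log2 change 1.48, limma adjusted p = 0.0065), and the other did not pass (0.46, adjusted p = 0.36). With single arrays left out the count of rises moved up or down, and Mn-SOD no longer passed without flooded root replicate 2. The share of all probe sets called in those fits was not counted, so nothing is read from these moves about the list. The catalase CAT2, which breaks hydrogen peroxide down, read 9.96 and 10.65 in flooded root, against 11.06 and 10.57 in control root (log2 change -0.51, limma adjusted p = 0.34). The ascorbate peroxidases sAPX and gAPX of the same list had root log2 changes of 0.32 and 0.09 (limma adjusted p = 0.49 and 0.89). Hydrogen peroxide itself was not measured. In leaf 0 of the 14 passed in limma (2 higher and 1 lower at an unadjusted p under 0.05), where 2.21% of all were called higher and 3.05% lower. The leaf count called higher moved up with either control root array left out, again with no share of all probe sets counted. The list's median log2 change in leaf was 0.11, beside -0.04 over all.

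Other genes annotated as peroxidase, without a POX or pod number, numbered 2. No source used here gives their class, and the numbered members too were placed by name only. One of them, LOC107905931, was bright in both tissues, and its probe set is also of the s_at kind. It read 11.47 and 11.84 in flooded root, against 12.81 and 13.02 in control root, and fell there (log2 change -1.26, SE 0.19, limma adjusted p = 0.0063). In leaf it read 12.92 and 12.93 when flooded, against 12.28 and 12.38 in control leaf (log2 change 0.60, limma adjusted p = 0.13). Its change in root minus that in leaf was -1.86 (SE 0.27, limma adjusted p = 0.009), so that, unlike any of the 10 numbered probe sets, it passed the test of a difference between the tissues. That difference was lost without flooded root replicate 1 (adjusted p = 0.051) or either flooded leaf array (0.056 and 0.055), and leaving out the first of these also ended the call of a fall in root (log2 change -1.07, adjusted p = 0.067). The other, LOC107951876, was dim, with log2 changes of 0.04 in root and 0.08 in leaf.

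Of the 2 genes of lignin monomer synthesis with a name, CCoAMOT2, a methyltransferase of that pathway, fell in root, with 10.35 and 9.81 in flooded root, against 11.67 and 12.05 in control root (log2 change -1.78, SE 0.29, limma adjusted p = 0.0086). With flooded root replicate 2 left out it no longer passed (log2 change -1.51, adjusted p = 0.068). CCR1 (-0.49, adjusted p = 0.6) did not pass in root. In leaf neither passed in limma, with 0 at an unadjusted p under 0.05. Among 36 probe sets of cell wall proteins and loosening enzymes, from 22 genes, 14 fell and 0 rose in root (median log2 change -0.93), and in leaf 5 fell and 1 rose (median -0.16). Nearly all of the root falls lost their call when flooded root replicate 1 was left out. The root count of falls was also lower with each other array left out, except control root replicate 1, where it was higher. All leaf falls lost their call when either flooded leaf array was left out. The leaf count of falls was also lower without a flooded root or control leaf array, and higher without either control root array. The count called higher in leaf was unchanged without either control root array and lower in the other fits. No share of all probe sets was counted in these fits. The wall probe sets that fell include the one of fla-12 closest to POX10 in pattern, while the other of that gene, dimmer, did not pass (log2 change -0.46 in root and -0.27 in leaf, limma adjusted p = 0.42 and 0.71). Among all probe sets 4.28% were called lower in root and 3.05% in leaf.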

How the data were processed

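Total RNA of 8 cotton samples was hybridised to the Affymetrix cotton array. The authors deposited log2 signals of 24132 probe sets in a single table, in which 0 columns lacked a sample. The submitters' processing notes list RMA and limma, with no version, role or order. RMA compresses small signals, and no source used here says whether root and leaf arrays were normalized together. Signals were used as deposited, with no filter, after 103 control probe sets were left out. In limma 3.58.1 under R 4.3.3, the mean of each group was estimated from all 8 arrays (residual degrees of freedom 4, prior 3.48). Flooded was set against control within each tissue and between these changes, with Benjamini-Hochberg adjustment over 24029 probe sets at 0.05. The p-values rest on the spread between arrays labelled as biological replicates, pooled over all groups and shared across probe sets. A p-value for root so rests partly on the leaf arrays, although the spread differed between groups. The number of arrays limits the precision.

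The platform's probe table gives 1 gene for 697 probe sets, all matched by gene identifier to RefSeq (assembly Gossypium_hirsutum_v2.1), and 324 of them have a name other than a locus number. A probe set may read the A and the D copy of a cotton gene. The members, the gene lists and the tests were chosen with earlier results of these data known. All members are named, as are the 3 closest patterns of each called member. Patterns that match list members to synonyms were written once the annotation was seen, and the list members given with values were picked after their values were seen. Alternatives were tried for the variance model, array weights, normalization, dim probe sets, each tissue alone, a replicate block and each array left out. Same-numbered arrays of flooded and control plants share only a number.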

Additional observations from a re-analysis of the deposited data

Results flagged for a closer look

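The limma test of the change in root minus that in leaf passed for 0 of the 10 numbered peroxidase probe sets, 1 of the 2 unnumbered ones, 2 of 14 for reactive oxygen production and removal, 0 of 2 for lignin synthesis and 7 of 36 for the cell wall, which are not given singly. Over all probe sets 8.26% passed. The wall count moved down or up with each single array left out, so it is not read as an excess over that share. The genes named here were picked after their values were seen. The unnumbered peroxidase LOC107905931 stood at -1.86 (SE 0.27, limma adjusted p = 0.009), with opposite signs in the tissues (-1.26 in root and 0.60 in leaf), of which the leaf change did not pass. AOX1 stood at 3.92 (SE 0.48) and a probe set of Mn-SOD at 1.73 (SE 0.32, limma adjusted p = 0.02). ERF7, at 3.36 (SE 0.49), was chosen for its likeness to pod7, and AOX1 was also named for that, so their differences are descriptions. The difference of Mn-SOD was lost without any 1 of the 4 flooded arrays (adjusted p = 0.064 to 0.099) or without control leaf replicate 2 (0.066), and that of LOC107905931 without 3 of the flooded arrays, as given above. Flooding lasted 4 h for root and 24 h for leaf, so tissue and time cannot be told apart in these differences.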

How the results depend on the processing

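POX10 kept its direction and its call in root under all 16 alternatives, and no call of the 10 probe sets changed sign. The rise count in root, 1 as reported, was 0 with the tissue alone, limma trend, array weights, quantile normalization within tissue and the replicate block, and 0 to 2 with 1 array left out; limma had 1 or 2 at an unadjusted p under 0.05. The fall count in root, 2 as reported, was 1 with the tissue alone and with the replicate block, and 1 to 3 with 1 array left out. The rise count in leaf, 0 as reported, was 1 (pod1) with the tissue alone, array weights, arrays centred on the median and dim probe sets left out, and 0 to 1 with 1 array left out. The fall count in leaf, 1 as reported, was 0 to 1 with 1 array left out. The count of changes that differed between tissues, 0 as reported, was 0 to 2 with 1 array left out (pod1 without control root replicate 1, POX5 (S1) and POX9 without control root replicate 2). With a control root array left out, the gap between the control root arrays no longer enters the spread. Members called only in such a fit are not read as results. The cause of these moves was not tested.

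The replicate differences of flooded and control arrays correlated at 0.037 in root and -0.19 in leaf, so the block was run as an alternative only; it took the root counts to 0 rises and 1 fall and changed no leaf call. A crossed replicate block in leaf, chosen after seeing the data, gave 1 rise and 1 fall. Changes that did not pass reversed in sign in these cases: pod7 in leaf was 0.037 after quantile normalization within tissue and 0.026 with arrays centred on the median. With 1 array left out, pod7 in leaf ran from -0.14 to 0.059, pod6 in leaf from -0.087 to 0.20, POX9 in leaf from -0.20 to 0.31, pod10 in leaf from -1.21 to 0.70, pod1 in root from -0.20 to 0.81 and pod3 in root from -0.23 to 0.054. pod3 was left out by the filter on dim probe sets. The replicate spread (root mean square SD 0.208 in flooded root, against 0.477 in control root) enters the variance shared by all groups, so leaving out an array also changes that variance.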
